A study of Mus musculus with 4 samples.

Results

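The E2F transcription factors and the RB pocket proteins were taken here as 10 genes: E2f1, E2f2, E2f3, E2f4, E2f5, E2f7, E2f8, Rb1, Rbl1 and Rbl2. They were picked by symbol from the 32285 genes of the count matrices, by a rule that uses no measured value. E2F factors bind DNA with a DP partner and switch on genes for DNA synthesis when a cell leaves G1. The pocket proteins RB1, p107 (Rbl1) and p130 (Rbl2) hold E2F in check until cyclin-dependent kinases phosphorylate them. E2F1, E2F2 and E2F3 are classed as activators, E2F4 and E2F5 as repressors that work with p107 and p130, and E2F7 and E2F8 as atypical repressors that need neither DP nor pocket proteins. In the testis, spermatogonia pass through this switch at every mitotic division and preleptotene cells pass through it once more, for the last DNA replication before meiosis.

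The levels were read from single-cell RNA sequencing of 4 testes at postnatal day 15 (P15), 2 wild-type and 2 Meioc-null, on a C57BL/6N background. MEIOC is a cytoplasmic protein of germ cells that works with RNA-binding partners at the entry into meiosis, and the series asks how its loss alters the transcriptome at this step. The null allele was Meioc tm1.1Dpc. Animals of both genotypes were heterozygous for Hspa2 tm1Dix and homozygous for a ROSA26 tdTomato reporter whose stop cassette was intact, so the controls carried these alleles too. Each batch held 1 wild-type and 1 Meioc-null pup of the same litter, and the replicate number is the batch. Each library came from 1 testis, and the interstitium was largely discarded during dissociation, so that the somatic cells are a selected remainder. Levels are unique molecular identifiers (UMIs) of a gene scaled to 1000000 UMIs of the cluster in that library (CPM). Since the UMIs are counted at the 3′ end of transcripts, each gene is compared with itself across clusters and genotypes, and not with other genes.

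After the filters, 26225 cells remained, 13149 wild-type and 13076 Meioc-null, of which 20234 were germ cells. The 4 libraries held between 158291903 and 190455307 UMIs over all barcodes, with a median between 11701.5 and 14421.5 UMIs per kept cell, and each pair of libraries shared between 12 and 16 of its barcodes. The wild-type germ cells formed 10 clusters in 1 unbranched order, numbered here from 1 to 10. Cluster 1 was named undifferentiated spermatogonia-like from its markers (such as Gfra1, Ret and Upp1), clusters 2 to 4 differentiating spermatogonia-like, cluster 6 preleptotene-like (Stra8, Rec8), clusters 8 and 9 early spermatocyte-like and cluster 10 pachytene-like. Cluster 5 scored alike for differentiating spermatogonia and preleptotene markers, and cluster 7 for preleptotene and early spermatocyte markers, so both remain unnamed. Sertoli-like, Leydig-like and peritubular myoid-like cells were found outside the germ line. An unnamed cluster was led by Clec3b, Dcn and Lum, and another by Gzmc, Cd52 and Cd3g, in which all 5 germ cell markers were also detected. The Sertoli-like cells joined a shallow and a deep cluster, at 0.182 and 2.83 of the library's median depth. Leydig-like wild-type cells differed in depth, with 161 at a median of 1801 UMIs in replicate 1 and 57 at 16644 UMIs in replicate 2. Meioc-null cells were placed by their nearest wild-type cells. None were placed in cluster 10, against 254 and 301 wild-type cells.

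From cluster 6 on, cells of the genotypes resembled each other less than the shared numbering implies. When both genotypes were clustered together, 1118 wild-type cells of cluster 8 and 814 of cluster 9 fell in a cluster with 0 Meioc-null cells, while 1344 Meioc-null cells of cluster 7 fell in a cluster with 0 wild-type cells. In cluster 6, 1673 Meioc-null cells shared a cluster with 990 wild-type cells, while 365 and 135 Meioc-null cells fell in clusters that held 0 wild-type cells of cluster 6. A difference between genotypes in clusters 7 to 9, and in part in cluster 6, is therefore a difference from the nearest wild-type cells. The Meioc transcript itself gave 618 and 683 CPM in the wild-type libraries of cluster 6 and 651 and 639 CPM in the Meioc-null libraries. A 3′ count need not fall in the deleted part of the gene, so this level does not check the genotype labels.

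The promoters of the members are shown first because some E2F genes are known to carry E2F sites of their own, through which the family acts on itself. Each RefSeq window (GRCm38.p6) holds 250 bases before and 50 bases after a transcription start, and 7 of the 10 members had at least 1 window. E2f4, E2f5 and Rb1 had none. The E2F motif was searched on both strands as TTTCCCGC, TTTCGCGC, TTTGCCGC or TTTGGCGC. It was found in 4 of the 9 windows of members and in 2.27% of all 32841 windows. The stretches that hold the match follow, read 5′ to 3′ on the strand of the gene, with the match in capitals. They lie at chr13:29986064-29986163 (E2f3, minus strand), chr2:157204535-157204634 (Rbl1, minus strand), chr10:110745195-110745294 (E2f7, plus strand) and chr4:136172303-136172323 (E2f2, plus strand), where the RefSeq start of E2f2 differs from the gene start given further on.
E2f3: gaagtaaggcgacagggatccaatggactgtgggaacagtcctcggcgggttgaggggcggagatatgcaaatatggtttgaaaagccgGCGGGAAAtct
Rbl1: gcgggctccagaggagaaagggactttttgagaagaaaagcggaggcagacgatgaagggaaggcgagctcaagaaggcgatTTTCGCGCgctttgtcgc
E2f7: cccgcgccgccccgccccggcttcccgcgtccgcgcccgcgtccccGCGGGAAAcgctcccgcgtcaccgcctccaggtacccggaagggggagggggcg
E2f2: cggcatatagTTTGGCGCtaa
The match began 11 bases before the start in E2f3, 18 bases before it in Rbl1, 198 bases before it in E2f7 and 39 bases after it in E2f2. The windows of E2f8 and Rbl2 held none of these letters. Nor did that of E2f1 (chr2:154569377-154569676), which lies inside the annotated gene and does not reach the gene start given further on, so the sequence before that start was not searched. A match is a description of the letters and not evidence of binding.

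Among the activators, E2f1 had its highest wild-type levels in clusters 6 and 7. E2f1 (ENSMUSG00000027490, chr2:154559407-154569892, minus strand, GRCm38) stood at 81.5 and 59.3 CPM in the preleptotene-like cluster 6 and at 72.3 and 61.8 CPM in cluster 7. Between the spermatogonial clusters and cluster 6 the level dipped, to 22.6 and 18.1 CPM in cluster 5, below both libraries of every cluster from 1 to 4. After cluster 8, at 59.4 and 49.7 CPM, it was 12.3 and 6.68 CPM in cluster 9 and 2.77 and 1.51 CPM in cluster 10, the lowest of all 15 clusters. The libraries of clusters 6, 7, 3, 2 and 8 overlapped from each to the next in this order of the means, so their order is within the spread. E2f1 was higher in batch 1 than in batch 2 in 9 of the first 9 clusters in wild-type and in 8 of 9 in Meioc-null testes.

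E2f2 and E2f3 had their highest wild-type levels in the differentiating spermatogonia-like clusters. E2f2 (ENSMUSG00000018983, chr4:136172394-136196057, plus strand) had 2.53 and 1.13 CPM in cluster 1 and was highest in cluster 4, at 43.3 and 36.5 CPM. It had 33.1 and 25.6 CPM in cluster 3, and the libraries of clusters 4 and 3 did not overlap. From cluster 8 on it did not exceed 1.07 CPM, which is 9 UMIs, in any wild-type library. E2f3 (ENSMUSG00000016477, chr13:29906575-29986063, minus strand) was highest in cluster 3, at 85.8 and 89.2 CPM, and had 34.4 and 33.5 CPM in cluster 6. In cluster 7 it had 6.31 and 5.4 CPM, so the step from cluster 6 to cluster 7 was far larger than the spread between the libraries. E2f1 showed no such step between these clusters.

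The repressors E2f4 and E2f5 were present in every germ cluster. E2f4 (ENSMUSG00000014859, chr8:105297663-105305370, plus strand) had its lowest mean in cluster 1, at 15.5 and 14.2 CPM, and its highest mean in cluster 6, at 81.8 and 62.8 CPM. Its libraries in clusters 6, 7, 4 and 5 overlapped from each to the next. In 9 of 9 clusters E2f4 was higher in batch 1 than in batch 2 in both genotypes. E2f5 (ENSMUSG00000027552, chr3:14578641-14606309, plus strand) was at or above 100.5 CPM in both libraries of clusters 3 to 9, with its highest means in cluster 5 (127 and 144 CPM) and cluster 8 (120 and 146 CPM). In cluster 10 it had 26.3 and 48.6 CPM. Its 3′ end lies over 1810022K09Rik on the other strand, and the sources used here do not say whether reads were counted by strand.

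The atypical repressors E2f7 and E2f8 were also highest in the differentiating spermatogonia-like clusters. E2f7 (ENSMUSG00000020185, chr10:110745439-110787384, plus strand) was highest in cluster 4, at 37.9 CPM in both libraries, and had 6.08 and 6.47 CPM in cluster 5. It showed a second, smaller high of 11.1 and 12.3 CPM in cluster 6 and 2.04 and 1.35 CPM in cluster 7. E2f8 (ENSMUSG00000046179, chr7:48866429-48881596, minus strand) was highest in cluster 3 (19.3 and 16.1 CPM) and cluster 2 (15.5 and 16.2 CPM), whose libraries overlapped. From cluster 5 on it lay between 0.290 and 2.60 CPM in every wild-type library, so unlike E2f7 it had no second high in cluster 6. The 3′ end of E2f7 overlaps 1700020G17Rik on the other strand. Of the members described before, E2f1 and E2f4 have a neighbour on their own strand near the 3′ end, Necab3 and Elmo3.

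Among the pocket proteins, the germ line and the soma differed in their pattern. Rb1 (ENSMUSG00000022105, chr14:73183673-73325822, minus strand), the retinoblastoma protein gene, was highest in cluster 4, at 82.6 and 89.6 CPM, and lowest of the germ clusters in cluster 10, at 14 and 18.9 CPM. Sertoli-like cells, which no longer divide after puberty, had 49.5 and 51.5 CPM, while Leydig-like and myoid-like cells had 10.3 CPM or less in each wild-type library. Rb1 shares its 3′ region with Gm17233 on the same strand, so some of these UMIs could belong to either. Rbl1 (ENSMUSG00000027641, chr2:157145893-157204534, minus strand) had separate highs. It stood at 54.7 and 58.5 CPM in cluster 4, at 17.4 and 17.2 CPM in cluster 7, and at 57.3 and 66.5 CPM in cluster 8. Its libraries in clusters 10, 8 and 4 overlapped from each to the next, and cluster 10 had the highest mean, with 58.6 and 82.5 CPM.

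Rbl2 (ENSMUSG00000031666, chr8:91070057-91123844, plus strand) was highest in the soma. It had 31.9 and 35.6 CPM in Sertoli-like cells, 30.6 and 26.7 CPM in peritubular myoid-like cells, 16.5 and 26.6 CPM in Leydig-like cells and 27.7 and 32.2 CPM in the cluster led by Clec3b, Dcn and Lum. In the 10 germ clusters it lay between 1.21 and 3.89 CPM. Every library of these 4 somatic clusters was above every library of the germ clusters. Free RNA of lysed cells reaches droplets of all kinds, and its part in the low germ-line level was not tested. The 3′ end of Rbl2 overlaps Aktip on the other strand. The plot of wild-type levels shows these patterns by library.

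**Figure D1:**
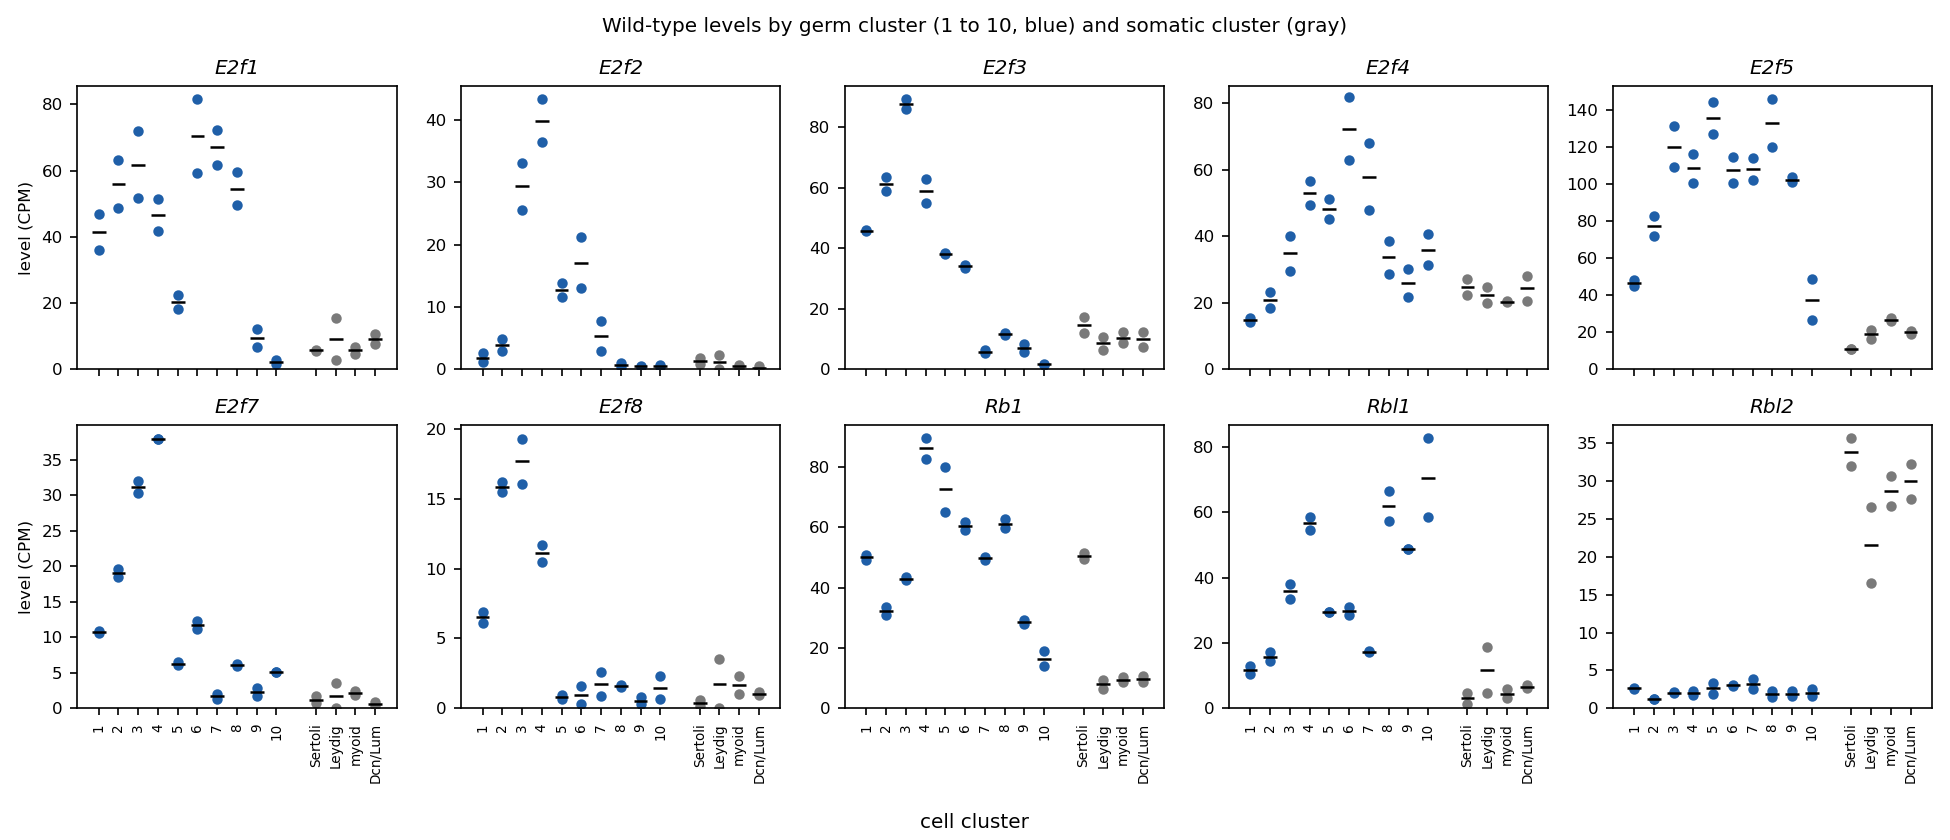
Level (CPM) of each member in the 2 wild-type libraries (points) with their mean (bar), by germ cluster (1 to 10, blue) and somatic cluster (gray, Dcn/Lum is the cluster led by Clec3b, Dcn and Lum). E2f2, E2f7 and E2f8 peak in clusters 3 or 4, E2f1 dips to 22.6 and 18.1 CPM in cluster 5 before its high in cluster 6, and Rbl2 is at 16.5 CPM or more only in somatic clusters.

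The genes whose wild-type pattern over the 15 clusters was most like a member's were named by the Pearson correlation of log2(CPM + 1) among 12875 genes. The clusters share libraries and depth, so these values describe and do not test. For E2f1 they were Siah1b (r = 0.97), Lig1 (r = 0.96), the ligase that joins Okazaki fragments, and Trim36 (r = 0.95). E2f7 was nearest to Ska1 (r = 0.95), a spindle and kinetochore gene, followed by Khdrbs2 and Hspa14 (both r = 0.93). E2f8 was nearest to Aurkb (r = 0.94), the mitotic kinase, Hist1h3b (r = 0.93), a replication-dependent histone, and Pimreg (r = 0.92). The other neighbours were Gm49698, Gm5784 and 5730507C01Rik for E2f2, Ccnj, Zfp623 and Jph1 for E2f3, Etv3, Ago4 and Gopc for E2f4, Hmces, Caprin2 and Cisd2 for E2f5, Secisbp2, Trp53rka and Usp37 for Rb1, Atl1, Ccnyl1 and Mtbp for Rbl1, and Zfhx4, Sod3 and Gm10115 for Rbl2, with r between 0.91 and 0.99.

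Between the genotypes, no member passed the test in clusters 1 to 5 or in the soma. All calls of members fell in clusters 6 to 9, and they are counted below beside the share of all genes called in each cluster. UMIs were summed per library and cluster and fitted across all genes with edgeR's quasi-likelihood test. A gene was called at a Benjamini-Hochberg adjusted p under 0.05 with a log2 fold change (wild type over Meioc-null) beyond 0.1 in size. Each genotype had 2 libraries, from animals of different litters. The fit moderates the spread of each gene by that of all genes, so the p-values do not rest on the spread between 2 animals alone. In clusters 1 to 5, 0 of 49 tests of members passed, with 3 at an unadjusted p under 0.05, where 0%, 0.0203%, 0.0712%, 0% and 0.614% of all genes were called in clusters 1 to 5. With DESeq2, 0 members passed (background 0.0206%, 0.102%, 0.142%, 0.0667% and 0.28%). With the batch in the fit, 0 members passed too (background 0.405%, 0.902%, 1.16%, 3.06% and 6.94%). In the 4 somatic and unnamed clusters that had 50 cells in each library, 0 of 31 tests passed, 0 at an unadjusted p under 0.05, and DESeq2 gave 0. The background there was 0.265% in Sertoli-like and 0.0786% in myoid-like cells and 0.0671% and 0.0797% in the clusters led by Clec3b and by Gzmc. By DESeq2 it was 0.0884%, 0.0864%, 0.0479% and 0.417% in the same order. Leydig-like cells were not tested, since 1 library held 49 of them.

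From cluster 6 on, much of the transcriptome differed, and the members have to be read against that. In cluster 6, 2 of 10 members tested were called, where 11.6% of all genes were. It was 4 of 10 in cluster 7 (background 27.7%), 6 of 9 in cluster 8 (45.4%) and 5 of 7 in cluster 9 (53.6%). By direction, genes with more in wild type made up 4.71%, 12.2%, 21.5% and 26.5% of the genes tested in clusters 6 to 9, and those with more in Meioc-null 6.86%, 15.5%, 24% and 27.1%. The members' counts rose with the background and are no result about the family as such. The directions differed between members. Of the 17 calls, 12 were higher in Meioc-null and 5 higher in wild-type cells. In 17 of 17 the libraries of the genotypes did not overlap, which makes the direction the same in both batches. The test favours such genes, and their share among all called genes was not counted, so this adds no support. DESeq2 called 9 of the 17 and no other, did not call 7 and gave the remaining comparison no adjusted p, against a background of 6.67%, 19.7%, 30.8% and 38.7% in clusters 6 to 9. The fit with the batch as a term (the replicate block) called 21, where the background rose to 29.4%, 48.8%, 53.6% and 58.7% in clusters 6 to 9.

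E2f1 changed direction along the order. In cluster 6 it had 81.5 and 59.3 CPM in wild-type libraries against 69.7 and 53.5 CPM in Meioc-null libraries, which overlapped. The difference did not pass (log2 fold change 0.24, edgeR adjusted p = 0.267), but did with the replicate block (edgeR adjusted p = 0.0499). It also passed with doublets kept and the cells clustered again (log2 fold change 0.46, edgeR adjusted p = 0.0318). Of the kept cells in that matched cluster, 71.1% were of cluster 6 and 28.2% of cluster 7, so it is no separate view of cluster 6. In cluster 7 the wild-type libraries had 72.3 and 61.8 CPM and the Meioc-null libraries 30.4 and 27.2 CPM, with no overlap. The log2 fold change was 1.29 ± 0.13 (SE from the edgeR F statistic, n = 2 libraries a genotype, edgeR adjusted p = 4.5e-06), which is 2.45-fold higher in wild type. In cluster 8 it was 59.4 and 49.7 against 25.7 and 27.4 CPM, a log2 fold change of 1.02 ± 0.15. In cluster 9 the order turned over. Wild-type libraries had 12.3 and 6.68 CPM and Meioc-null libraries 20.0 and 18.3 CPM, a log2 fold change of -1.02 ± 0.32 (edgeR adjusted p = 0.00665). This last call was lost without wild-type replicate 2 (log2 fold change -0.62) and with DESeq2 (-0.97), and rests on 51 UMIs in Meioc-null cells. Over clusters 7, 8 and 9 the level in wild-type cells was 67.1 ± 7.46, 54.5 ± 6.92 and 9.46 ± 3.94 CPM (mean ± SD, n = 2). In Meioc-null cells it was 28.8 ± 2.27, 26.5 ± 1.18 and 19.1 ± 1.24 CPM, a narrower range.

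E2f3 was higher in Meioc-null cells from cluster 7 on. In cluster 6 the libraries overlapped, with 34.4 and 33.5 CPM in wild-type libraries against 36.2 and 29.9 CPM in Meioc-null. In cluster 7 they had 6.31 and 5.4 against 16.3 and 11.2 CPM, in cluster 8 11.1 and 12 against 29.3 and 25.5 CPM, and in cluster 9 8.31 and 5.81 against 24.8 and 30.4 CPM. The log2 fold changes were -1.15 ± 0.28, -1.20 ± 0.19 and -1.97 ± 0.30 (edgeR adjusted p = 0.0067, 2.54e-05 and 2.15e-07). The step down after cluster 6 that wild-type cells showed was thus present but smaller in Meioc-null cells. The call in cluster 7 was lost when the listed genes took part in the clustering (-0.46), and in cluster 6 a difference of -0.46 was called when both genotypes were clustered together. E2f2 had 21.3 and 13 CPM in wild-type libraries against 30.8 and 21.6 CPM in Meioc-null libraries of cluster 6, which did not overlap. Its log2 fold change of -0.55 ± 0.20 did not pass (edgeR adjusted p = 0.0954). It passed with the replicate block (-0.56, adjusted p = 0.000423), and also without wild-type replicate 1 (-0.89) and without Meioc-null replicate 2 (-0.71). It passed as well with both genotypes clustered together (-1.02), with the listed genes in the clustering (-0.66) and without the filter on low genes (-0.58). With the listed genes, the matched cluster held 53.4% cells of cluster 6 and 46.4% of cluster 5. In clusters 8 and 9, E2f2 had too few UMIs to be tested.

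E2f4 was called in clusters 8 and 9, lower in Meioc-null cells. Wild-type libraries had 38.7 and 28.6 CPM in cluster 8 and Meioc-null libraries 28.4 and 15.9 CPM, so that the nearest of them almost met. The log2 fold change was 0.61 ± 0.20 (edgeR adjusted p = 0.0212), and it was lost without wild-type replicate 1 (0.45) and without Meioc-null replicate 2 (0.28). It was also lost with DESeq2 (0.63) and with the listed genes in the clustering (0.25), and turned to -0.17 with doublets kept and the cells clustered again. In that clustering the cluster most like cluster 8 held 56.8% of its cells. In cluster 9 the values were 30.1 and 21.8 against 18.1 and 8.52 CPM. The difference of 1.10 ± 0.29 (log2) was also lost without Meioc-null replicate 2 (0.62). E2f5 was called in cluster 7 alone. Meioc-null libraries had 164 and 174 CPM and wild-type libraries 102 and 114 CPM, a log2 fold change of -0.57 ± 0.13 (edgeR adjusted p = 0.00444), lost with the listed genes in the clustering (-0.43). In cluster 8 its libraries lay at 120 and 146 against 129 and 130 CPM. In cluster 9 E2f5 had 101 and 103 CPM in wild-type against 91.5 and 88.3 CPM in Meioc-null libraries. This did not pass (log2 fold change 0.25, edgeR adjusted p = 0.132), but passed without the filter on low genes (0.44, adjusted p = 0.0288).

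The atypical repressors were low in these clusters, and their calls were towards the Meioc-null cells. E2f8 had 1.63 and 0.351 CPM (12 and 2 UMIs) in wild-type libraries against 4.91 and 4.71 CPM (81 and 59 UMIs) in Meioc-null libraries of cluster 6. Its log2 fold change of -2.14 ± 0.46 (edgeR adjusted p = 0.00885) rests on 14 wild-type UMIs and was lost with the listed genes in the clustering (-1.76), and DESeq2 gave it no adjusted p. In cluster 8 it had 1.55 and 1.66 against 4.47 and 5.71 CPM, a log2 fold change of -1.63 ± 0.46 that was lost with DESeq2 (-1.64) and with doublets kept and the cells clustered again (-1.20). In cluster 7 E2f8 had 2.60 and 0.900 against 3.91 and 1.83 CPM, which overlapped and did not pass (-0.68, edgeR adjusted p = 0.393). It passed with the listed genes in the clustering (-1.51, edgeR adjusted p = 0.0404), where cells of cluster 7 made up 60.9% of the matched cluster. These Meioc-null levels remained below the 17.0 and 14.8 CPM of E2f8 in Meioc-null cells of cluster 4. E2f7 had 2.91 and 1.74 CPM (14 and 18 UMIs) in wild-type libraries against 7.62 and 6.69 CPM (8 and 11 UMIs) in Meioc-null libraries of cluster 9, a log2 fold change of -1.62 ± 0.51 (edgeR adjusted p = 0.00678) that was lost without wild-type replicate 2 (-1.26) and with DESeq2 (-1.58).

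Rb1 was higher in Meioc-null cells in all 4 of these clusters. In cluster 6 wild-type libraries had 59.1 and 61.7 CPM and Meioc-null libraries 104 and 79.8 CPM. The log2 fold change was -0.55 ± 0.12 (edgeR adjusted p = 0.00885), or 1.47-fold. This call was lost with the listed genes in the clustering (-0.24), where 46.4% of the matched cluster were cells of cluster 5. In clusters 7 and 8 the log2 fold changes were -0.46 ± 0.12 and -0.38 ± 0.12, and both were lost with DESeq2 (-0.43 and -0.37). The one in cluster 8 was also lost without wild-type replicate 1 (-0.32). In cluster 9 it was 29.3 and 27.9 against 66.7 and 51.1 CPM, a log2 fold change of -0.95 ± 0.18. Cluster 6 was the first in which Rb1 separated, since in cluster 5 its libraries had 65.0 and 80.1 against 83.7 and 71.6 CPM. Rbl1 differed in direction between clusters 7 and 8. It had 17.4 and 17.2 CPM in wild-type libraries against 23.7 and 26.9 CPM in Meioc-null libraries of cluster 7, a log2 fold change of -0.47 ± 0.20 that did not pass (edgeR adjusted p = 0.0862) except with the replicate block (-0.47, adjusted p = 0.00577). In cluster 8 it had 57.3 and 66.5 against 49.8 and 49.2 CPM, a log2 fold change of 0.35 ± 0.14 (edgeR adjusted p = 0.0396) that was lost without wild-type replicate 2 (0.17) and without Meioc-null replicate 1 (0.30). It was also lost with DESeq2 (0.35), without the filter on low genes (0.33), with the listed genes in the clustering (0.09) and with doublets kept and the cells clustered again (0.03). Rbl2 stayed at or under 4.92 CPM in all libraries of clusters 6 to 9 and passed in cluster 8 with the replicate block (log2 fold change -1.04, edgeR adjusted p = 0.0407) and not without it (adjusted p = 0.0662).

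**Figure D2:**
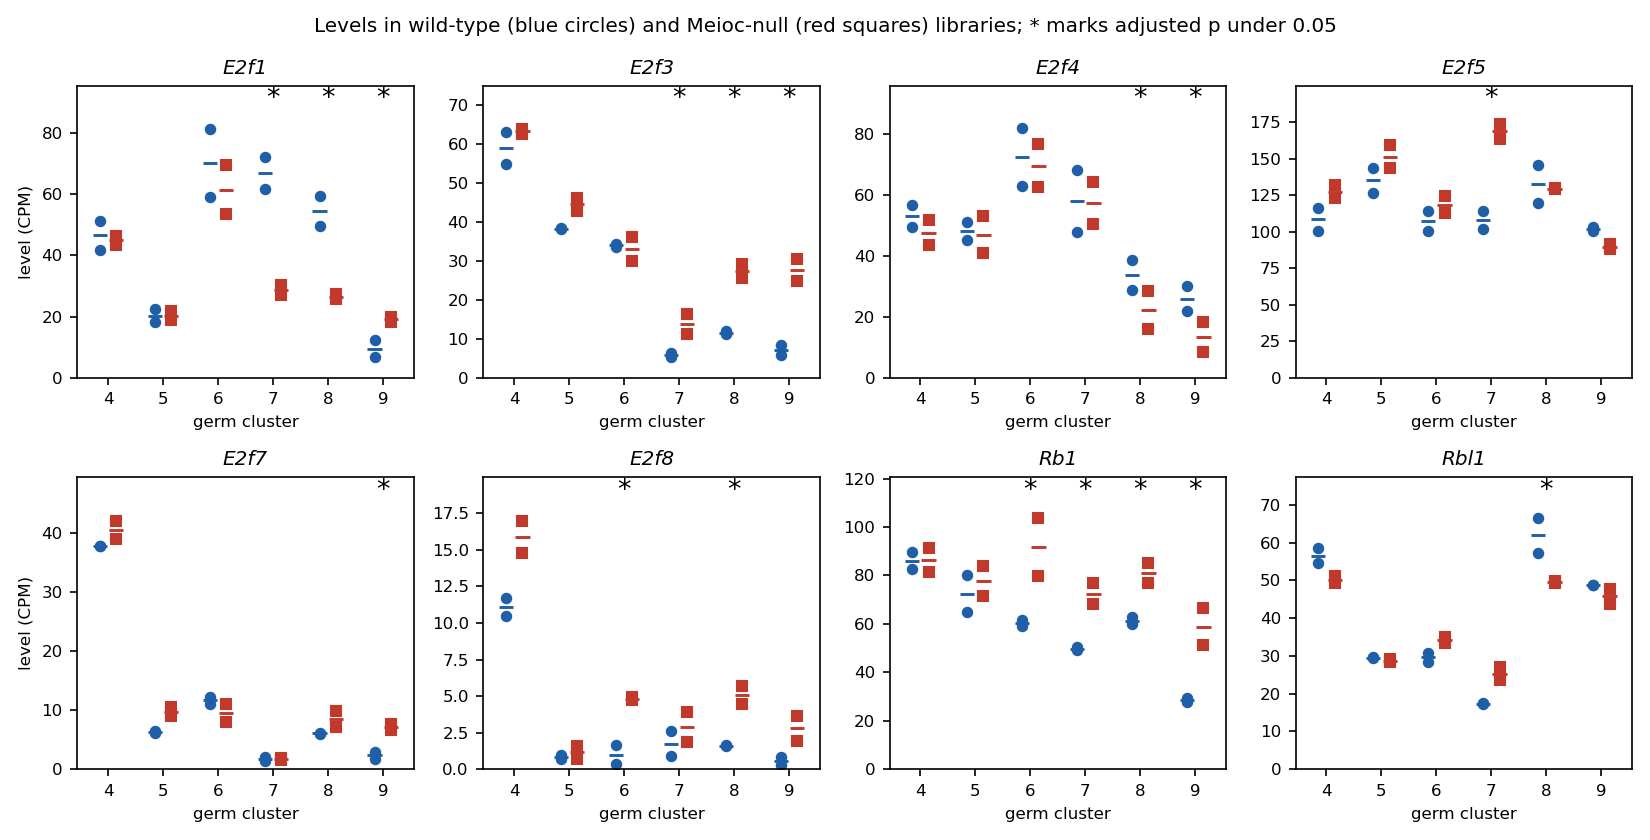
Level (CPM) of the members with a call in germ clusters 4 to 9, per library (blue circles wild-type, red squares Meioc-null). Bars mark the means and asterisks an edgeR adjusted p under 0.05. E2f1 in wild type lies at 72.3 and 61.8 CPM in cluster 7 against 30.4 and 27.2 CPM in Meioc-null and falls below it in cluster 9, while Rb1 lies higher in Meioc-null from cluster 6 on.

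**Figure D3:**
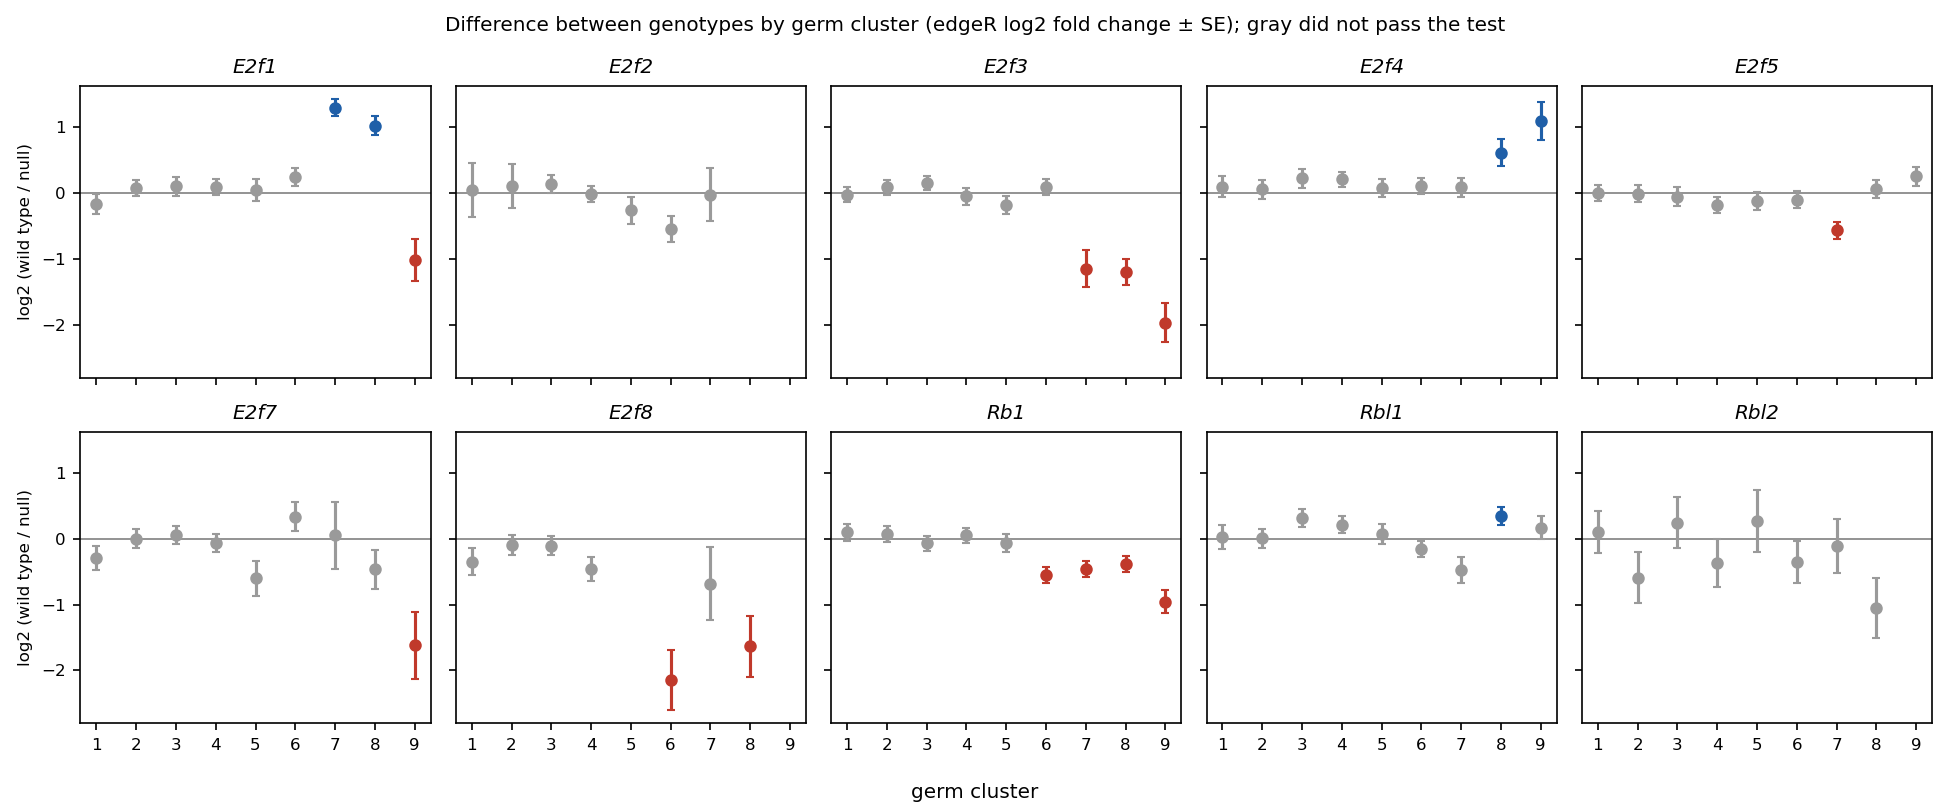
Log2 fold change of wild type over Meioc-null (± SE) for each member by germ cluster, positive where wild type is higher. Blue and red mark calls and gray marks values that did not pass. Clusters 1 to 5 hold no call, and E2f1 goes from 1.02 in cluster 8 to -1.02 in cluster 9.

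Whether these genotype effects differed from a cluster to the next was tested directly, as an interaction of genotype and cluster with the library in the fit. From cluster 5 to 6, the effect of Rb1 shifted by -0.49 ± 0.10 on the log2 scale (edgeR adjusted p = 0.000107), and that of E2f7 by 0.92 ± 0.28, where 22.4% of all genes shifted. E2f7 passed in neither of these clusters, with a log2 fold change of -0.60 in cluster 5 (6.08 and 6.47 against 10.6 and 8.95 CPM, edgeR adjusted p = 0.446) and of 0.34 in cluster 6 (11.1 and 12.3 against 11.1 and 7.98 CPM, adjusted p = 0.355). From cluster 6 to 7, E2f1 shifted by 1.04 ± 0.13, E2f3 by -1.27 ± 0.22 and E2f5 by -0.50 ± 0.09 (background 27.7%). From cluster 7 to 8, E2f5 shifted back by 0.62 ± 0.10, with E2f4 (0.56 ± 0.18) and Rbl1 (0.82 ± 0.18) in the same direction (background 43.2%). From cluster 8 to 9, E2f1 shifted by -2.01 ± 0.30 (edgeR adjusted p = 4.35e-08), E2f3 by -0.74 ± 0.31 and Rb1 by -0.51 ± 0.18 (background 38.8%). The shift of E2f1 from cluster 8 to 9 tests a change in the effect and not a turn of direction. The turn rests on its call in cluster 9, which was lost with DESeq2 and without wild-type replicate 2.

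Several other values moved with genotype in the same clusters, and their part in these differences was not tested. The summed level of 20 G2/M genes was 5042 and 5427 CPM in wild-type libraries against 8832 and 8358 CPM in Meioc-null libraries of cluster 7. That of 30 S-phase targets was 3269.51 and 2877.55 CPM in wild-type against 2878.47 and 2729.2 CPM in Meioc-null libraries. It was higher in wild type within each batch, and the libraries overlapped only narrowly. The mean number of the neighbouring wild-type clusters was 8.98 in both wild-type libraries of cluster 9 and 8.71 and 8.70 in the Meioc-null libraries, so that the Meioc-null cells lay earlier within it. Cluster 9 held 61 and 84 Meioc-null cells against 269 and 677 wild-type cells. The median depth in cluster 8 was 10105 and 9656 UMIs per wild-type cell and 11463 and 14156 UMIs per Meioc-null cell.

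**Figure D4:**
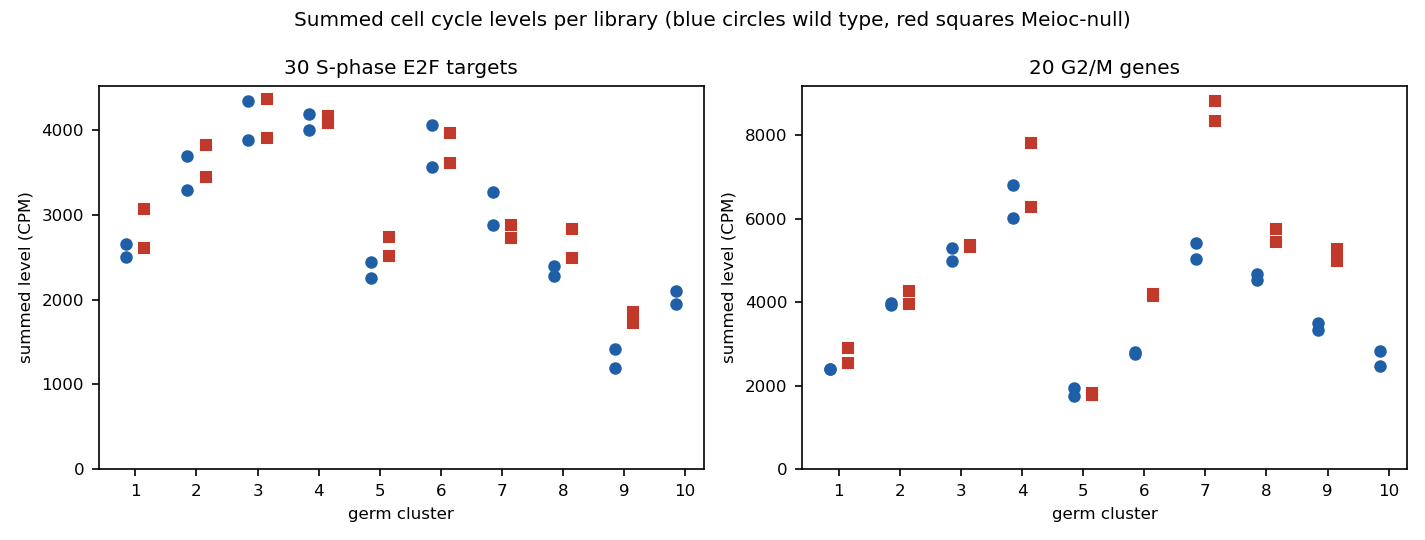
Summed level (CPM) of 30 S-phase E2F targets and 20 G2/M genes per library in each germ cluster (blue circles wild-type, red squares Meioc-null). In cluster 7 the G2/M sum is 8832 and 8358 CPM in Meioc-null against 5042 and 5427 CPM in wild type.

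Of the lists of partners, regulators and targets, 0 genes were called in clusters 1 to 5, and in Sertoli-like cells 1 cyclin or kinase gene and 1 G2/M gene were higher in Meioc-null. Tfdp1, the main DP partner, was higher in Meioc-null cells in cluster 7 (log2 fold change -0.71 ± 0.23) and higher in wild-type cells in clusters 8 (0.48 ± 0.17) and 9 (0.74 ± 0.20). Tfdp2 differed in cluster 9 alone, at 40.1 and 46.1 CPM in wild-type libraries against 97.2 and 94.3 CPM in Meioc-null libraries (log2 fold change -1.07 ± 0.16). E2f6, an E2F that represses without pocket proteins and keeps germ-line genes silent in other tissues, had 4.78 and 3.10 CPM in wild-type libraries against 22.9 and 26.2 CPM in Meioc-null libraries of cluster 9 (log2 fold change -2.65 ± 0.34, edgeR adjusted p = 9.26e-09). It was also called in cluster 8 (-0.97 ± 0.29). In cluster 5 its libraries lay apart, at 22.7 and 22.3 against 39.0 and 32.4 CPM, without passing (E2f6 log2 fold change -0.63, edgeR adjusted p = 0.0738). Nor did it pass in cluster 6, where the libraries overlapped (-0.31, adjusted p = 0.312), or in cluster 7 (-0.90, adjusted p = 0.103). Within each batch E2f6 was higher in Meioc-null in clusters 5, 6 and 7. In cluster 6 it had 16.8 CPM in wild type against 22.9 CPM in batch 1, and 13.7 against 16.2 CPM in batch 2. No fit with the batch is given for E2f6. The MuvB core joins p107 or p130 and E2F4 in the repressive DREAM complex, and binds B-MYB and FOXM1 once the pocket proteins have left. The list of 8 genes held the MuvB core, these activators and a further MYB gene, Mybl1. In cluster 6, 4 of them were higher in Meioc-null cells (Lin54, Mybl1, Mybl2 and Foxm1) and 0 in wild type. Cluster 7 had 2 higher in Meioc-null against 1 in wild type, and cluster 8 had 3 against 0. Cluster 9 had 2 against 3, where Lin52, Rbbp4 and Lin9 were higher in wild type. Lin54, the DNA-binding subunit, was called in all 4 clusters and had 18.9 and 17.1 CPM in wild-type libraries against 52.4 and 50.3 CPM in Meioc-null libraries of cluster 7 (log2 fold change -1.44 ± 0.15). Mybl2, the B-MYB gene, was called in cluster 6 alone among clusters 5 to 9 (-0.50 ± 0.14). Over all lists but the members, 24 genes were called in cluster 6, and 39 with the replicate block. The share of all genes called rose likewise, from 11.6% to 29.4%.

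The kinases and inhibitors upstream of the pocket proteins also differed. Ccne2, a cyclin E gene, was higher in Meioc-null cells in clusters 7, 8 and 9, with 142 and 133 against 370 and 284 CPM in cluster 8 (log2 fold change -1.23 ± 0.14). Ccne1, the other cyclin E gene, went the other way in cluster 7 (0.63 ± 0.14), and Cdk4, the cyclin D kinase, was higher in Meioc-null cells in clusters 8 (-0.75 ± 0.15) and 9 (-0.74 ± 0.16). Of the 6 CDK inhibitors that could be tested, 3 were higher in wild-type cells in cluster 7, Cdkn1c (1.59 ± 0.41), Cdkn2c (0.86 ± 0.13) and Cdkn2d (0.39 ± 0.12). In cluster 8, 4 were higher in Meioc-null and 0 in wild type. These were Cdkn2a, Cdkn2b, Cdkn1a and Cdkn2d, so that of the 3 named for cluster 7 Cdkn2d alone was called in the other direction (-0.70), and Cdkn2c was called higher in wild type again in cluster 9 (1.10). Cdkn2a, the Ink4a/Arf gene, had 9.35 and 5.13 CPM in wild-type libraries against 123 and 139 CPM in Meioc-null libraries of cluster 9 (log2 fold change -4.23 ± 0.20, edgeR adjusted p = 7.57e-21). Cdkn1a, the p21 gene, had 7.27 and 4.16 against 34.3 and 45.6 CPM there (-2.86 ± 0.28).

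Of 30 S-phase genes that E2F is known to switch on, 3 were called in cluster 6, where 11.6% of all genes were, and from cluster 7 to cluster 9 the balance of directions turned. The shares of all genes called in each direction, given above for the members, hold for these lists too. In cluster 6, Gins2, a subunit of the replicative helicase complex, was among those higher in wild-type cells, and Cdca7 was higher in Meioc-null cells. In cluster 7, 9 were higher in wild-type cells and 1, Cdca7, in Meioc-null cells. Pcna, the sliding clamp of DNA replication, had 256 and 257 CPM in wild-type libraries against 160 and 169 CPM in Meioc-null libraries (log2 fold change 0.72 ± 0.13). In cluster 8, wild-type cells had the higher level of 4 and Meioc-null cells that of 11. In cluster 9 it was 4 and 16 of the 27 that could be tested. E2f1 itself was higher in wild-type cells in clusters 7 and 8 and in Meioc-null cells in cluster 9, so in cluster 8 it and most of the called genes of the list had opposite directions. Mcm2, a subunit of the replicative helicase, differed by -2.06 ± 0.38 (log2) in cluster 9, and Rrm2, a subunit of ribonucleotide reductase, by -1.48 ± 0.13 in cluster 8. The median log2 fold change of the list was 0.14 in cluster 7, -0.28 in cluster 8 and -0.83 in cluster 9, beside -0.03, -0.02 and 0.01 over all genes tested.

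The G2/M genes went one way earlier and more widely. In cluster 6, 16 of 20 were higher in Meioc-null and 0 in wild-type cells, with a median log2 fold change of -0.81 beside -0.01 over all genes tested. In cluster 7 it was 17 and 0, with a median of -1.58. Plk1, the Polo kinase of mitotic entry, had 4.08 and 1.95 CPM in wild-type libraries against 97.1 and 73.6 CPM in Meioc-null libraries of cluster 7 (log2 fold change -4.78 ± 0.22, edgeR adjusted p = 5.05e-09). Ccnb1, cyclin B1, had a log2 fold change of -2.91 ± 0.18 there and Aurka, a spindle kinase, one of -2.81 ± 0.22. In clusters 8 and 9, 12 and 13 were higher in Meioc-null against 1 and 3 in wild type. The lists were chosen with earlier results of these data known, so these counts are a description.

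**Figure D5:**
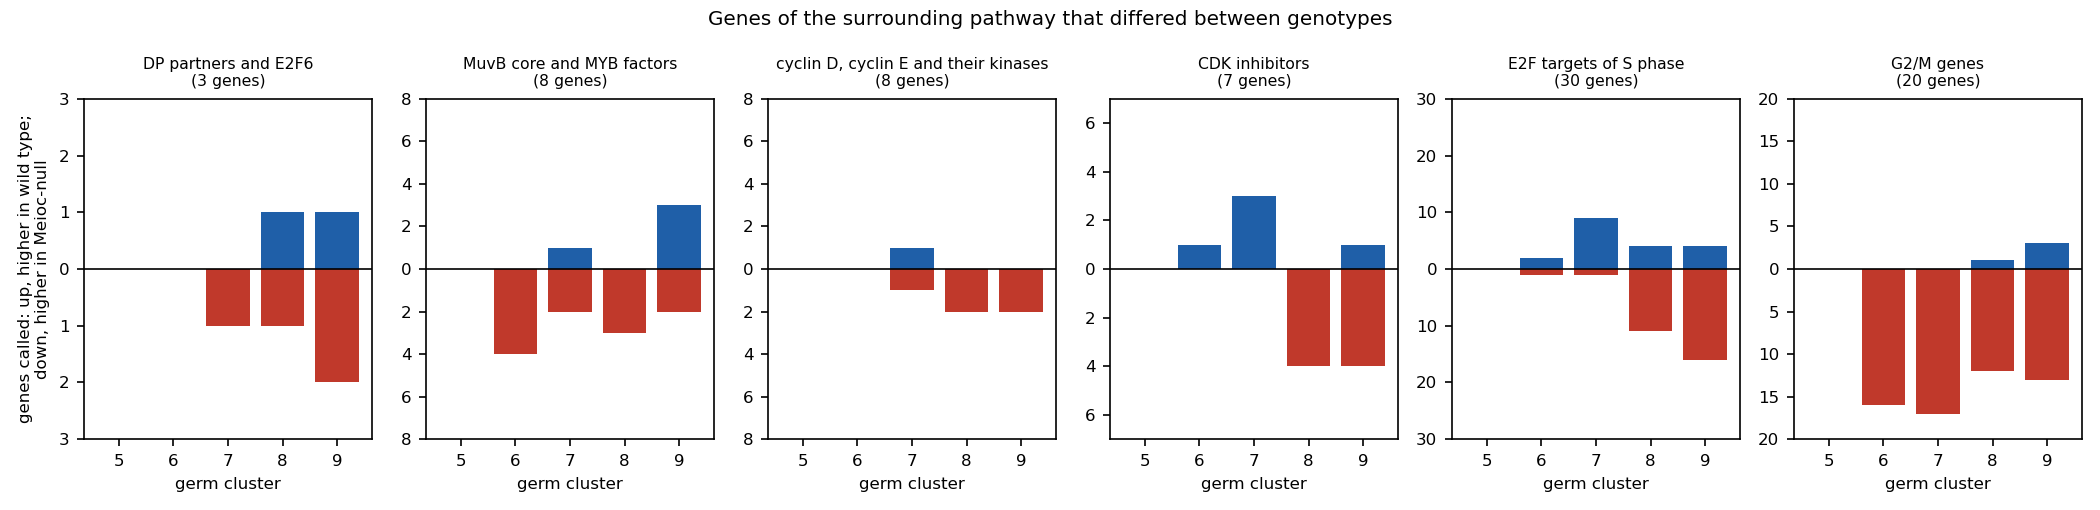
Number of genes of each list called between genotypes in germ clusters 5 to 9 (up, blue, higher in wild type, down, red, higher in Meioc-null), each axis reaching the number of genes tested. G2/M genes reach 17 higher in Meioc-null in cluster 7, and S-phase targets go from 9 higher in wild type in cluster 7 to 16 higher in Meioc-null in cluster 9.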

How the data were processed

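Single-cell RNA sequencing (10x Chromium 3′) of 4 P15 testes was analysed, 2 per genotype. The authors deposited UMI counts per gene and barcode, made with Cell Ranger 4.0.0 on mm10 (GRCm38) per the labels. Whether counting used strand is not given in the sources used. Barcodes with more than 1000 detected genes and under 10% mitochondrial UMIs were kept, as in the study. The top Scrublet scores were removed at 0.8% per 1000 barcodes, since the caller's own limit marked between 2.18% and 4.97%. Wild-type cells were clustered (scanpy 1.11.5, 2000 variable genes without the listed genes, 30 principal components, 20 neighbours), and other cells were placed by their 30 nearest wild-type cells. A cluster was left unnamed where its second marker score was over 0.8 of the first, a limit set after the scores were seen.

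UMIs were summed per library and cluster. Genes with at least 40 UMIs over the 4 libraries, in clusters with at least 50 cells in each library, were tested with edgeR 4.0.16 (quasi-likelihood, TMM, R 4.3.3), adjusted over all genes of a cluster. The SE of a log2 fold change was its size divided by the square root of the edgeR F statistic, and is not the spread of the libraries. The test across neighbouring clusters was added after seeing the data. Per the labels, the replicate number marks a littermate pair and batch, so the numbers pair the samples. The deviations of same-numbered libraries correlated between 0.164 and 0.434 in clusters 1 to 9. On simulated counts for cluster 7, 68% of 2-fold and 21% of 1.4-fold changes were recovered among 200 changed genes, and 3.26% of calls were false. The simulation changed 200 of 11119 genes, evenly in both directions, and held no batch effect. In the data 27.7% of genes were called in that cluster, so the false share need not hold there. Library totals lay between 158291903 and 190455307 UMIs, and PCR and capture error beyond counting was not modelled. Named genes were all members, and up to 3 called genes per list and cluster with the largest change in the same direction in both batches. Cdkn2d in cluster 8, Cdkn2c and Lin9 in cluster 9 and Foxm1 in cluster 6 fall outside this rule and were named after their values were seen. E2f6, Tfdp1, Tfdp2 and Mybl2 were followed wherever tested, and 3 genes most like each member were named. Members and lists were chosen with earlier results of these data known. Alternatives were DESeq2 1.42.0, its size factors, other filters, the replicate block, leaving out each library, and other clusterings. Promoter sequences are from RefSeq (GRCm38.p6) and gene coordinates from GENCODE.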

Additional observations from a re-analysis of the deposited data

Results flagged for a closer look

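The difference between genotypes (wild type over Meioc-null, log2) was compared between neighbouring clusters by an interaction term in edgeR, and the differences that passed follow. From cluster 5 to cluster 6 it changed by 0.92 for E2f7 (adjusted p = 0.0098) and by -0.49 for Rb1 (adjusted p = 0.000107). From cluster 6 to cluster 7 it changed by 1.04 for E2f1 (adjusted p = 4.52e-06), by -0.50 for E2f5 (adjusted p = 0.000264) and by -1.27 for E2f3 (adjusted p = 0.000176). From cluster 7 to cluster 8 it changed by 0.82 for Rbl1 (adjusted p = 0.000252), by 0.62 for E2f5 (adjusted p = 2.73e-06) and by 0.56 for E2f4 (adjusted p = 0.00952). From cluster 8 to cluster 9 it changed by -2.01 for E2f1 (adjusted p = 4.35e-08), by -0.74 for E2f3 (adjusted p = 0.0491) and by -0.51 for Rb1 (adjusted p = 0.0178). Between 22.4% and 43.2% of all genes passed the same tests. Single libraries could not be screened for outliers with 2 per genotype.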

How the results depend on the processing

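Of 197 alternative values of the 17 called differences, 172 kept direction and call, 24 lost the call and 1 reversed. Of 1249 alternative values of differences not called, 1236 stayed so, 12 passed and 1 reversed. The reversals were E2f4 in cluster 8 with doublets kept and the cells clustered again (-0.17) and E2f3 in cluster 6 with both genotypes clustered together (-0.46). The causes were not tested. DESeq2 called 9 members' differences in all, with 1 in cluster 6, 2 in cluster 8 and 3 in cluster 9. In cluster 6, against 2 in the main analysis, 1 was called with the filter of 25% of cells, 1 with the listed genes in the clustering, 4 with both genotypes clustered together and 4 with the replicate block. The replicate block took the pathway genes called in cluster 6 from 24 to 39, ended no call of a member and added 4. With it the share of all genes called in cluster 6 rose from 11.6% to 29.4%. That share was not counted for the filter, the other clusterings or the fits without 1 library, so their counts have no background. Leaving out 1 library gave between 14 and 16 calls of members over clusters 6 to 9, and in cluster 9 between 3 and 5. The cluster with the highest germ-line level was the same for 6 of 10 members without wild-type replicate 1 and for 10 without replicate 2, and for 5 of 9 with the listed genes in the clustering. With both genotypes clustered together, clusters 7 to 9 had no counterpart with enough cells of both genotypes and gave no value, and at the 5% mitochondrial limit clusters 6 to 9 held too few cells to be tested. Where several clusters matched the same alternative cluster, that with most shared cells was compared. With doublets kept, the match of cluster 6 held 71.1% cells of cluster 6 and 28.2% of cluster 7. With the listed genes in the clustering, it held 53.4% cells of cluster 6 and 46.4% of cluster 5. The match of cluster 7 under that setting held 60.9% cells of cluster 7. With 2 libraries per genotype, an exact permutation test of a single value cannot pass 0.05. Low members, E2f2, E2f8 and Rbl2 in cluster 9 among them, fell under the limit of 40 UMIs and were not tested.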
